A study of Mus musculus with 4 samples.

Results

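Clotting and clot removal are run by a chain of proteases held in check at cell surfaces, and gut macrophages and dendritic cells (DCs) make several of its parts. The 7 genes described here are F3, F7 and F10 of the start of clotting, Thbd and Procr of the anticoagulant protein C system, and Plau and Plaur of plasminogen activation. They were chosen by name as every probe set that names one of them as its single gene on the array, which gave 10 probe sets for 7 of 12393 genes measured. F3 encodes tissue factor, the membrane receptor that binds factor VII (F7) when blood meets tissue. That complex activates factor X (F10), which in turn makes thrombin. Thrombomodulin (Thbd) captures thrombin and turns it towards protein C, and the endothelial protein C receptor (Procr) presents protein C to it. Urokinase (Plau), held at the surface by its receptor (Plaur), cuts plasminogen into plasmin, which dissolves fibrin and lets myeloid cells move through matrix.

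RNA was measured in 4 myeloid populations of the large-intestinal lamina propria, the connective tissue under the gut epithelium, of C57BL/6J mice, for which the labels name no treatment. The CX3CR1high macrophages carried CD11c, CD11b and much CX3CR1, the fractalkine receptor, and the CX3CR1- cells had the first pair of these but no CX3CR1. The CD11b+ cells carried CD11b without CD11c, and the CD11chigh DCs carried much CD11c without CD11b. Each population was read on 1 Affymetrix array labelled from the 3′ end, so nothing was replicated or tested, and every ratio is only as precise as 1 array a side allows. The labels do not give the number, age or sex of the mice, or whether mice were pooled.

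Signals are linear intensities that the authors scaled so that each array had an equal trimmed mean. A floor of 103, the median signal of all 4 arrays together, marks where signals carry little information. Where 1 of both signals is under the floor the ratio is written "at least N-fold", and a pair with both sides under it has no ratio. A gene is counted as higher or lower at 2-fold or more. The only spread at hand was that between probe sets of 1 gene on the same arrays, with an SD of 0.31 to 0.52 in log2 ratio over the 6 pairs of populations, which holds no difference between mice. In bulk RNA, fewer expressing cells and less RNA per cell cannot be told apart. Signals of different probe sets are not set against each other.

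Markers were read first as a check of the labels. All 10 tissue macrophage markers reached the floor in the CX3CR1high macrophages, the CX3CR1- cells and the CD11b+ cells. In the CD11chigh DCs 7 of the 10 did, with Mertk, Mrc1 and Cd163 under it. Conventional DC markers reached the floor for 6 of 10 in the CX3CR1high macrophages, 9 of 10 in the CX3CR1- cells, 6 of 10 in the CD11b+ cells and 10 of 10 in the DCs. Itgax, which encodes CD11c, had a signal of 1864 in the CD11b+ cells although these were gated as lacking CD11c, and 1826 in the CX3CR1high macrophages. Cx3cr1 gave 1499 in the CX3CR1high macrophages against 291, above the floor, in the CX3CR1- cells. RNA wear, read as the Gapdh control signal at the 3′ end divided by that at the 5′ end, was 1.08 in the CX3CR1high macrophages, 3.40 in the CX3CR1- cells, 2.17 in the CD11b+ cells and 0.791 in the DCs. The same ratio for Actb was 1.68, 2.76, 3.18 and 1.11 in the same order of populations.

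F3, the trigger of clotting, had nearly the same signal in all populations. Its probe set gave 216 in the CX3CR1high macrophages, 317 in the CX3CR1- cells, 206 in the CD11b+ cells and 184 in the DCs. All values lay above the floor, and the widest gap, CX3CR1- cells over DCs, was 1.72-fold. No order among the 4 populations can be read from gaps under 2-fold. Tissue factor is known from epithelial cells and fibroblasts as well. The epithelial list summed to 24052 in the CX3CR1high macrophages, 7929 in the CX3CR1- cells, 3291 in the CD11b+ cells and 4423 in the DCs. Fibroblast markers summed to 16454, 22512, 65491 and 5214 in the same order of populations. The part of these cells in the F3 signal was not tested.

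F7, the protease partner of tissue factor, is best known as a liver product that circulates in plasma. Its probe set gave 49.4 in the CX3CR1high macrophages, 186 in the CX3CR1- cells, 133 in the CD11b+ cells and 35.2 in the DCs. It thus reached the floor in the CX3CR1- cells and the CD11b+ cells and lay under it in both others. The CX3CR1- cells were at least 1.81-fold above the CX3CR1high macrophages and above the DCs, and 1.40-fold above the CD11b+ cells. None of these was counted as past 2-fold, though the true gap behind a bound can be larger. With a floor at the 25th percentile of signals, 22.9, the log2 ratio was -1.91 for CX3CR1high macrophages against CX3CR1- cells and 2.40 for CX3CR1- cells against DCs, both past 2-fold.

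F10, the protease at which the clotting pathways meet, had the widest floored range of the 7 genes, and was highest in the CD11b+ cells. Its brightest probe set gave 129 in the CX3CR1high macrophages, 225 in the CX3CR1- cells, 929 in the CD11b+ cells and 9.24 in the DCs. The CD11b+ cells stood apart from every other population. The CX3CR1high macrophages were 7.22-fold lower than the CD11b+ cells, and the CX3CR1- cells 4.13-fold lower. The CD11b+ cells were at least 9.03-fold above the DCs. By this probe set the CX3CR1high macrophages were 1.75-fold lower than the CX3CR1- cells, short of 2-fold.

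Both other F10 probe sets had the same order of populations. One of them gave 33.4 in the CX3CR1high macrophages, 147 in the CX3CR1- cells, 460 in the CD11b+ cells and 1.19 in the DCs. The other, of a type that can match more than 1 transcript, gave 83.6, 208, 769 and 3.36 in the same order of populations. Over the 3 sets the CX3CR1- cells were 3.13-fold to 4.13-fold lower than the CD11b+ cells, measured on both sides in each. The 3 sets split over CX3CR1high macrophages and CX3CR1- cells. The macrophages were 1.75-fold lower by the brightest set and at least 2.02-fold lower, past the limit, by the set that can match more than 1 transcript. The remaining set gave a bound of at least 1.43-fold there. In the pair of CX3CR1- cells and DCs the CX3CR1- cells were higher by all 3 sets, with bounds of at least 1.43-fold, 2.02-fold and 2.19-fold. A bound short of the limit there does not show that the sets differ.

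The monocyte, fibroblast, neutrophil, mast cell, and B and plasma cell lists were highest in the CD11b+ cells too. Monocyte markers summed to 7973 in the CX3CR1high macrophages, 30424 in the CX3CR1- cells, 54732 in the CD11b+ cells and 23554 in the DCs. In the pair of CX3CR1high macrophages and CD11b+ cells all 6 measured monocyte markers were at least 2-fold lower in the macrophages, as F10 was. So were all 10 fibroblast markers. Of the markers with a ratio, 4 of 7 for neutrophils, 1 of 1 for mast cells and 0 of 3 for B and plasma cells were. Neutrophil markers summed to 2151, 1079, 9020 and 310 in the same order of populations, with 7 of 9 at or above the floor in the CD11b+ cells and Cxcr2 and Elane under it. Of 7 mast cell markers only Hdc reached the floor in any population. B and plasma cell markers summed to 18883, 10617, 34703 and 10310 in the same order of populations, with 3 of 5 at or above the floor in the CD11b+ cells. Nearly all of each sum was Jchain, at 18478, 10329, 34144 and 10118, while Ms4a1 and Pax5 were under the floor in all populations. The part of these cells in the F10 signal was not tested.

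F7 and F10 are next to each other on chromosome 8, with 0 annotated genes between them in the RefSeq gene table. Both reached the floor in the CX3CR1- cells and the CD11b+ cells and lay under it in the DCs. In the CX3CR1high macrophages F7 was under the floor (49.4), as F10 was by all but its brightest probe set (129). F7 and F10 differed in the CD11b+ cells, where F10 was at its peak and F7 was not above the CX3CR1- cells. Stretches before the start site were taken from RefSeq (build GRCm38.p6) for the 5 members found in its promoter table, and are shown because the members fall into groups by what these stretches hold. In the first 3, each 80 bases, capitals mark matches to the AP-1 motif TGANTCA, which reads the same on both strands. Thbd and Plau are not shown.
F3: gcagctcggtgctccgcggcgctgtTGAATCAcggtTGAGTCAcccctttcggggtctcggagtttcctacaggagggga
Plaur: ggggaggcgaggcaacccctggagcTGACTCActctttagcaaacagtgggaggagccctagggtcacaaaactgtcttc
Procr: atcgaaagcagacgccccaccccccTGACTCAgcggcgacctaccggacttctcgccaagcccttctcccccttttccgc
F10: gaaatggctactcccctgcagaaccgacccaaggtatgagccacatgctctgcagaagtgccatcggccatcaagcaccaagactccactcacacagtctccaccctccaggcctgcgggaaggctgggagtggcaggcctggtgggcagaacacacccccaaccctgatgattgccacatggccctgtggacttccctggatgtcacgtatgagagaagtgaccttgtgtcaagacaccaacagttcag
F7: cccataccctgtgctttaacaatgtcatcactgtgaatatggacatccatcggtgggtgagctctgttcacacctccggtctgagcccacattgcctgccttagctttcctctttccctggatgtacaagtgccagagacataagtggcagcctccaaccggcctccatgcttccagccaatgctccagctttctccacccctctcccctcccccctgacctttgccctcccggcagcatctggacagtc

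All 5 stretches run 5′ to 3′ on the plus strand. The F3 stretch is chr3:121723366-121723445, the Plaur stretch chr7:24462389-24462468 and the Procr stretch chr2:155751038-155751117. The F10 stretch is chr8:13037058-13037307 and the F7 stretch chr8:13025784-13026033, each the 250 bases up to the start site of that table. In the 250 bases before the start, F3 held 2 AP-1 matches, Plaur 1 and Procr 1. Neither F7 nor F10 held one, so 3 of 5 members did, against 6.75% of 32851 promoters in the table. The GC box GGGCGG, searched on both strands, was found in F3 and Plaur, 2 of 5 members, against 32.7% of all promoters, with overlapping copies in Plaur. These are matches of letters and not sites shown to be bound. Of the 3 members with an AP-1 match, Plaur was lowest in the DCs and Procr was high there. F3 had no order that could be read.

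**Figure D1:**
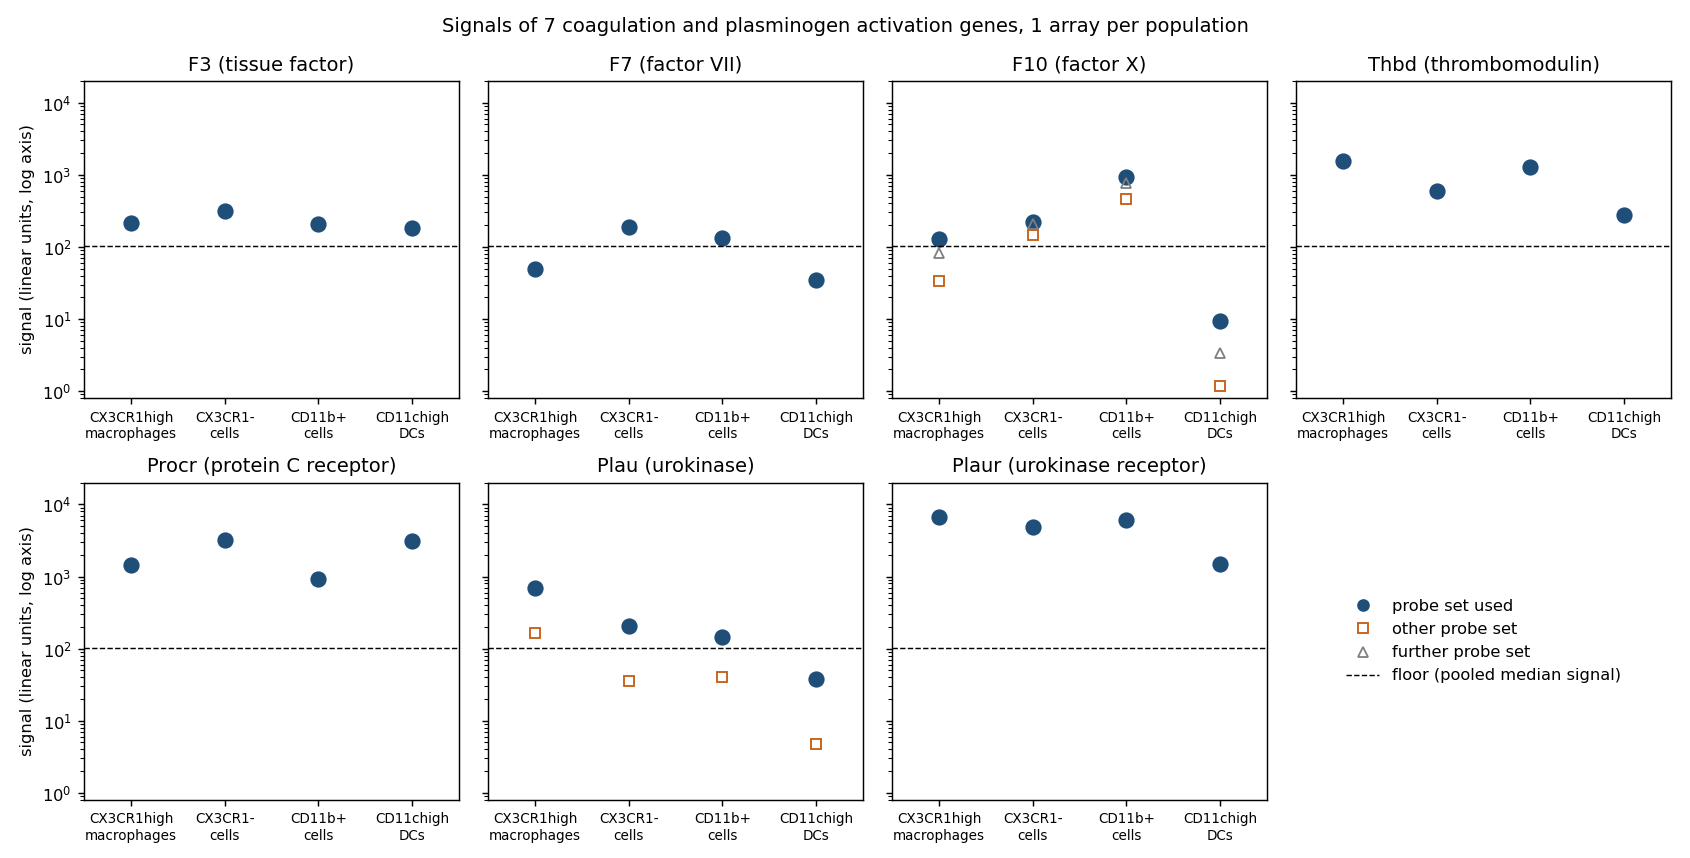
Signal (linear units, log axis) of every probe set of the 7 genes in the 4 populations, 1 point per array, with filled circles for the probe set used, open symbols for further sets of F10 and Plau, and a dashed line at the floor of 103. F10 peaks at 929 in the CD11b+ cells, Plau at 683 in the CX3CR1high macrophages, and F3 stays between 184 and 317.

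Thbd, the thrombin receptor of the protein C system, was high in both the CX3CR1high macrophages and the CD11b+ cells and lowest in the DCs. Its probe set gave 1555 in the CX3CR1high macrophages, 593 in the CX3CR1- cells, 1303 in the CD11b+ cells and 280 in the DCs. All 4 values lay above the floor. The CX3CR1high macrophages were 5.55-fold above the DCs and 2.62-fold above the CX3CR1- cells, and 1.19-fold above the CD11b+ cells, which sets no order there. The CX3CR1- cells were 2.20-fold lower than the CD11b+ cells and 2.12-fold above the DCs. That last ratio fell under 2-fold with equal array medians, at a log2 ratio of 0.86, and with quantile normalization, at 0.97. In human blood, thrombomodulin (CD141) is a surface marker of the cross-presenting type of DC. In these mouse arrays the DCs, in which the DC markers Itgae and Flt3 were highest, had the lowest Thbd signal.

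Procr, which presents protein C to the thrombin and thrombomodulin complex, followed another order. Its probe set, of a type that can match more than 1 transcript, gave 1465 in the CX3CR1high macrophages, 3186 in the CX3CR1- cells, 921 in the CD11b+ cells and 3084 in the DCs. The CX3CR1- cells and the DCs shared a high level, 1.03-fold apart, and both others lay under them. The CX3CR1high macrophages were 2.18-fold lower than the CX3CR1- cells and 2.11-fold lower than the DCs. The CX3CR1- cells were 3.46-fold above the CD11b+ cells, and the CD11b+ cells 3.35-fold lower than the DCs. The conventional DC list also was highest in these populations, with sums of 6121 in the CX3CR1high macrophages, 24889 in the CX3CR1- cells, 7758 in the CD11b+ cells and 45815 in the DCs.

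The receptors Thbd and Procr work together on endothelium, yet in 4 of the 6 pairs both were past 2-fold in opposite directions. Between the CX3CR1high macrophages and the DCs, Thbd was 5.55-fold higher in the macrophages and Procr 2.11-fold lower. Endothelial markers summed to 1644 in the CX3CR1high macrophages, 1265 in the CX3CR1- cells, 1346 in the CD11b+ cells and 535 in the DCs. Of 10 such markers, 7 reached the floor in the CX3CR1high macrophages, 5 in the CX3CR1- cells, 6 in the CD11b+ cells and 1 in the DCs. Pecam1 stood at 156 in the CX3CR1high macrophages and Cdh5 at 222, and both were under the floor in the DCs. The part of endothelial cells in the Thbd and Procr signals was not tested.

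Plau, the activator, was highest in the CX3CR1high macrophages. Its brightest probe set gave 683 in the CX3CR1high macrophages, 203 in the CX3CR1- cells, 146 in the CD11b+ cells and 37.9 in the DCs. The macrophages stood above every other population, and the DCs alone lay under the floor. The macrophages were 3.36-fold above the CX3CR1- cells, 4.68-fold above the CD11b+ cells and at least 6.64-fold above the DCs. CX3CR1- cells and CD11b+ cells lay 1.40-fold apart, which sets no order. The dimmer probe set gave 162, 36.1, 41.0 and 4.70 in the same order of populations, and reached the floor only in the CX3CR1high macrophages, at least 1.58-fold above each of the others. With the floor at the 75th percentile, 453, each of these 3 Plau log2 ratios had a bound of 0.59 and no call was left.

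Plaur, the receptor that holds urokinase at the surface, was high in the 3 CD11b-bearing populations and lower in the DCs. Its probe set, of a type that covers alternative transcripts, gave 6742 in the CX3CR1high macrophages, 4914 in the CX3CR1- cells, 6029 in the CD11b+ cells and 1475 in the DCs. The 3 CD11b-bearing populations lay within 1.37-fold of each other. Over the DCs, the CX3CR1high macrophages were 4.57-fold, the CX3CR1- cells 3.33-fold and the CD11b+ cells 4.09-fold higher. Activator and receptor thus had different patterns, since Plau was 4.68-fold higher and Plaur 1.12-fold higher in CX3CR1high macrophages than in CD11b+ cells. Tissue macrophage markers summed to 154688 in the CX3CR1high macrophages, 65387 in the CX3CR1- cells, 85536 in the CD11b+ cells and 13119 in the DCs. Their sum was lowest in the DCs, as Plaur, Thbd, Plau and F10 were. The fibroblast, endothelial, neutrophil, mast cell, platelet, and B and plasma cell sums were lowest there too. The epithelial list, all 13 measured members of which were at least 2-fold above the CD11b+ cells, was highest in the CX3CR1high macrophages as Plau was, and its part in the Plau signal was not tested.

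**Figure D2:**
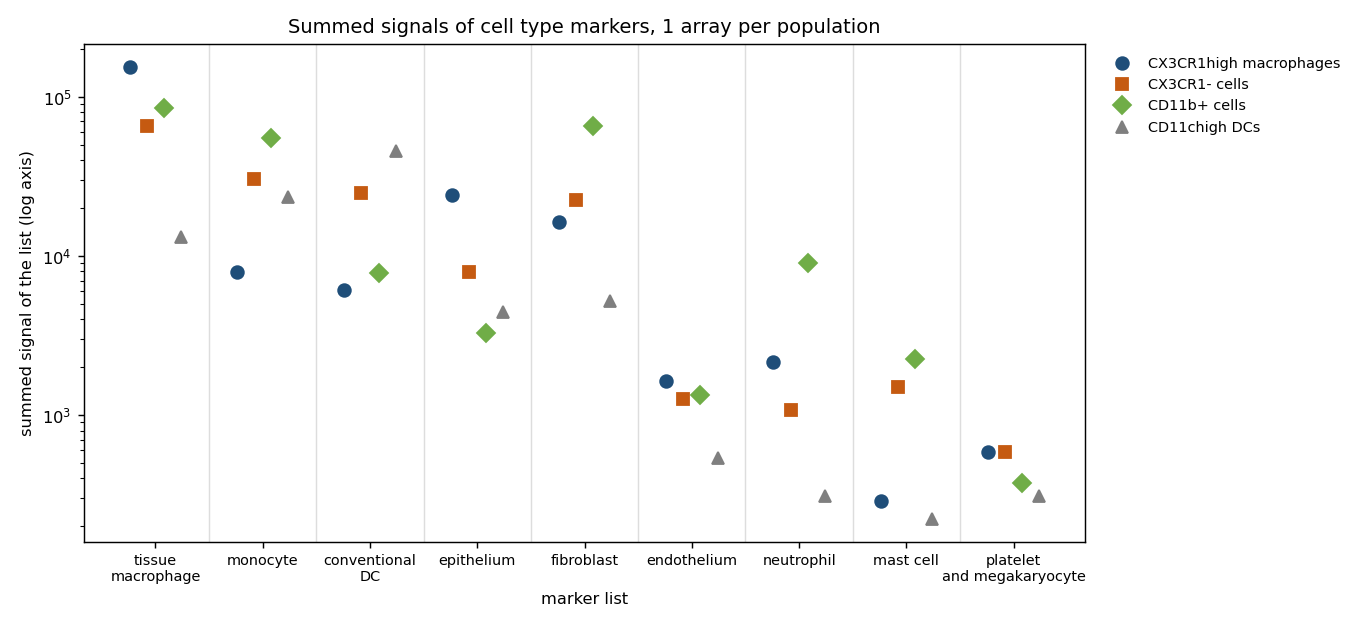
Summed signal (log axis) of marker lists of 9 cell types in the 4 populations, 1 point per array. The monocyte and fibroblast sums peak in the CD11b+ cells, the epithelial and macrophage sums in the CX3CR1high macrophages and the conventional DC sum in the DCs.

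Counted by pair, Plau was higher in the CX3CR1high macrophages than in the CX3CR1- cells and the CD11b+ cells. Between the same populations, Thbd was counted higher against the CX3CR1- cells, where Procr was lower, but not against the CD11b+ cells. In CX3CR1high macrophages against CX3CR1- cells, 2 of 7 members were higher (Thbd and Plau), where 8.56% of all genes with a ratio were, and 1 was lower (Procr), where 6.54% were. The members' median log2 ratio was -0.55, against 0.02 over all genes. In CX3CR1high macrophages against CD11b+ cells, 1 of 7 was higher (Plau), where 4.66% of genes were, and 1 lower (F10), where 5.83% were. The median was 0.16, against -0.02 over all genes.

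Against the DCs, more members were higher, and so were more genes in all. In CX3CR1high macrophages against DCs, 3 of 6 members with a ratio were higher (Thbd, Plau and Plaur), where 17.4% of genes were, and 1 lower (Procr), where 10.2% were. The median was 1.26, against 0.02 over all genes. In CX3CR1- cells against DCs, 3 of 7 were higher (F10, Thbd and Plaur), where 13.7% of genes were, and 0 lower, where 8.7% were, with a median of 0.98 against 0.04. In CD11b+ cells against DCs, 3 of 7 were higher (F10, Thbd and Plaur), where 17% of genes were, and 1 lower (Procr), where 10.4% were, with a median of 0.50 against 0.07. In CX3CR1- cells against CD11b+ cells, 1 of 7 was higher (Procr), where 3.55% of genes were, and 2 lower (F10 and Thbd), where 5.19% were, with a median of 0.48 against -0.06. Pairs that share an array are not independent of each other.

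At 4-fold the calls came down to F10, Thbd, Plau and Plaur. In CX3CR1high macrophages against CD11b+ cells Plau was higher, 1 of 7 where 0.865% of genes were, and F10 lower, 1 of 7 where 0.799% were. In CX3CR1high macrophages against DCs 3 of 6 were higher (Thbd, Plau and Plaur), where 6.06% of genes were, and 0 lower, where 1.95% were. In CX3CR1- cells against CD11b+ cells 0 were higher, where 0.569% of genes were, and 1 of 7 was lower (F10), where 0.488% were. In CD11b+ cells against DCs 3 of 7 were higher (F10, Thbd and Plaur), where 6% of genes were, and 0 lower, where 1.96% were. No member passed 4-fold in CX3CR1high macrophages against CX3CR1- cells, where 1.38% of genes were higher and 1.26% lower, or in CX3CR1- cells against DCs, where 3.5% were higher and 0.798% lower.

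**Figure D3:**
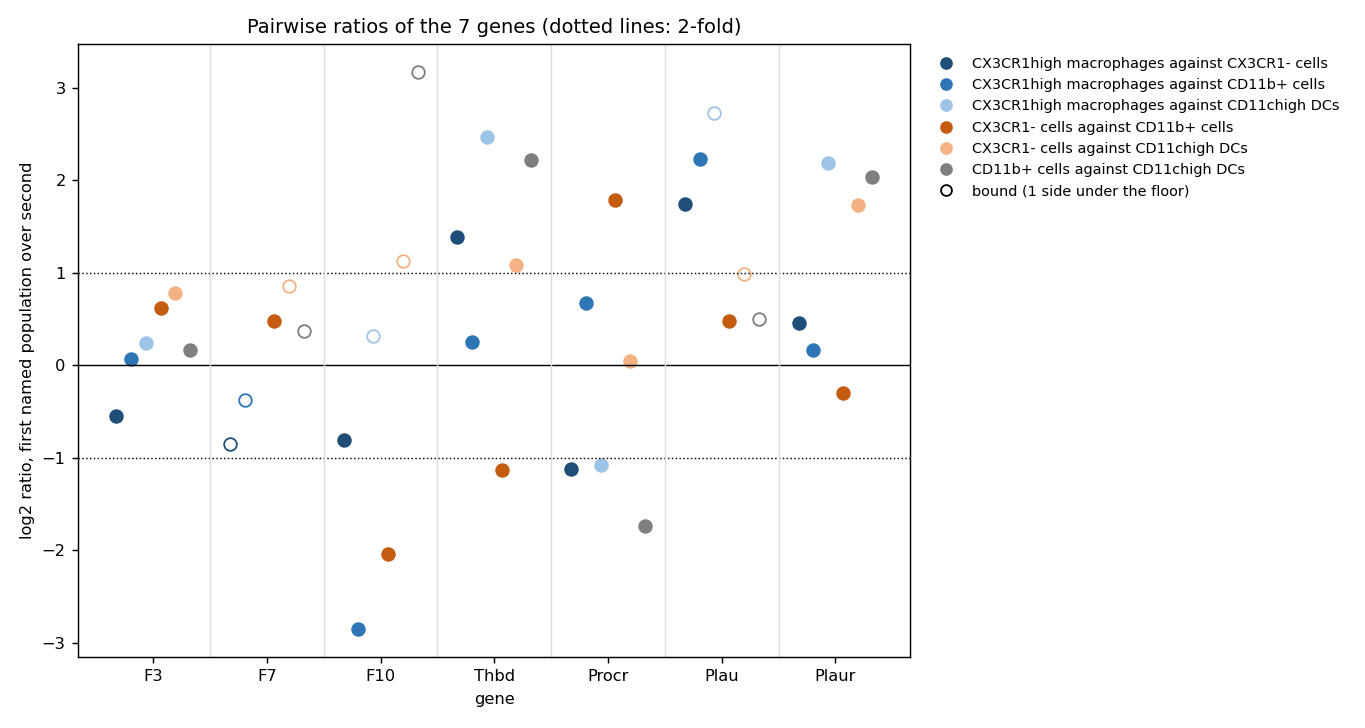
Log2 signal ratios of the 7 genes in the 6 pairs of populations, the one named before "against" over the other, with open circles for bounds and dotted lines at 2-fold. F3 has no ratio past 2-fold. No F7 ratio is counted past it, but all F7 ratios except that of CX3CR1- cells against CD11b+ cells are bounds. F10 reaches -2.85 in CX3CR1high macrophages against CD11b+ cells and a bound of 3.17 in CD11b+ cells against DCs.

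At 1 fixed limit, fewer genes lay near F10 than near Plaur, and F10 also had the wider span. Nearness is the largest difference in centred log2 signal over the 4 populations, for members that span at least 4-fold. For nearness and span, signals under the floor were set to it, so differences among such signals do not count. The genes nearest to F10 were Ces1d, a carboxylesterase, at 0.22, and the proteoglycan Vcan, at 0.31, and 9 genes lay within 0.5. Vcan, a gene of the monocyte list, gave 197 in the CX3CR1high macrophages, 280 in the CX3CR1- cells, 1122 in the CD11b+ cells and 31.5 in the DCs. In the DCs both Vcan and F10 were under the floor. Thbd was nearest to Flcn, the folliculin gene, at 0.05, and to Entpd7 at 0.08, with 149 genes within 0.5. Plau was nearest to the lectin Cd22 at 0.14 and to Cela1 at 0.17, with 29 within 0.5. Plaur was nearest to Susd6 at 0.07 and to the proton pump subunit Tcirg1 at 0.09, with 253 within 0.5. These counts fell as the floored span of the member rose, from 4.57-fold for Plaur to 9.03-fold for F10. They therefore do not show how rare a pattern is. With 4 points a profile, such nearness is a description.

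Around the 7 genes, 50 of 55 listed genes of the pathways were measured, and 23 to 26 of them had a ratio in each pair. Most genes of plasma clotting proteins lay under the floor in all 4 populations, among them F2, F8, F9, F11, F12, the fibrinogen genes Fga, Fgb and Fgg, and plasminogen, Plg. In CX3CR1high macrophages against CX3CR1- cells 5 of 24 listed genes were higher and 4 lower, where 8.56% and 6.54% of all genes were. Against CD11b+ cells 1 of 26 was higher and 6 lower, where 4.66% and 5.83% were. Against the DCs 11 of 23 were higher and 3 lower, where 17.4% and 10.2% were, and their log2 ratios had a median of 0.85. In CX3CR1- cells against CD11b+ cells 2 of 26 were higher and 2 lower, where 3.55% and 5.19% were. In CX3CR1- cells against DCs 8 of 24 were higher and 1 lower, where 13.7% and 8.7% were. In CD11b+ cells against DCs 10 of 26 were higher and 2 lower, where 17% and 10.4% were.

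Of the clotting factors, F5 and F13a1 were both under the floor in the DCs, and went opposite ways between CX3CR1high macrophages and CX3CR1- cells. F5, the cofactor with which factor X makes thrombin, gave 212 in the CX3CR1high macrophages, 1787 in the CX3CR1- cells, 1156 in the CD11b+ cells and 27.7 in the DCs. It was 8.42-fold lower in the macrophages than in the CX3CR1- cells and 5.45-fold lower than in the CD11b+ cells. Its other probe set gave 89.5, 701, 581 and 17.9 in the same order of populations. F13a1, whose product crosslinks fibrin, gave 15238 in the CX3CR1high macrophages, 1902 in the CX3CR1- cells, 8148 in the CD11b+ cells and 57.4 in the DCs. The macrophages were 8.01-fold above the CX3CR1- cells, and F13a1 was not past 2-fold against the CD11b+ cells (1.87-fold). Among the other clotting genes Vwf, which carries platelets to vessel walls, had 204 in the CX3CR1high macrophages against 574 in the DCs, its highest signal.

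Of 9 listed inhibitor and protein C genes, 3 had a ratio in CX3CR1high macrophages against CX3CR1- cells. By their brightest probe sets 3 of 3 were higher, where 8.56% of all genes were. Against DCs 3 of 3 genes with a ratio were higher, where 17.4% were. Against CD11b+ cells 1 of 4 was higher (Anxa3), where 4.66% were, with Tfpi at 1.72-fold and Pros1 at 1.36-fold. Tfpi, which blocks the tissue factor complex, gave 447 in the CX3CR1high macrophages, 148 in the CX3CR1- cells, 259 in the CD11b+ cells and 83.3 in the DCs. Pros1, the protein S cofactor of protein C and a ligand of Mertk, gave 711, 321, 524 and 159 in the same order of populations. Tfpi was 3.02-fold and Pros1 2.22-fold higher in the macrophages than in the CX3CR1- cells. The other Tfpi probe sets gave 222 and 190 in the macrophages against 117 and 57.5 in the CX3CR1- cells. By these sets Tfpi was higher in the macrophages but not counted past 2-fold. The signal of 57.5 was under the floor, so the ratio from it is a bound and the true gap can be larger. The Tfpi call thus rests on its brightest set. The third gene was Anxa3, 2.43-fold higher in the macrophages than in the CX3CR1- cells. Protein C itself, Proc, was under the floor in all populations.

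The thrombin receptor F2r was the only one of 3 measured protease receptors to reach the floor. It gave 1234 in the CX3CR1high macrophages, 1561 in the CX3CR1- cells, 2661 in the CD11b+ cells and 465 in the DCs. The CX3CR1high macrophages were 2.16-fold lower than the CD11b+ cells, and the CD11b+ cells 5.72-fold above the DCs. Its dimmer probe set gave 364, 405, 622 and 130 in the same order of populations. By that set the macrophages were lower than the CD11b+ cells but not past 2-fold, so the sets split there. By the brighter set the CX3CR1- cells were 1.70-fold lower than the CD11b+ cells, which sets no order there.

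Around Plau and Plaur, the other activator and an inhibitor were both lower in CX3CR1high macrophages when set against CX3CR1- cells. Plat, the tissue-type activator, gave 332 in the CX3CR1high macrophages, 947 in the CX3CR1- cells, 450 in the CD11b+ cells and 318 in the DCs. The macrophages were 2.85-fold lower than the CX3CR1- cells for Plat, while for Plau they were 3.36-fold higher. Serpinb2, an inhibitor of both activators, gave 929, 3690, 1860 and 31.7 in the same order of populations. It was 3.97-fold lower in the macrophages than in the CX3CR1- cells and at least 9.03-fold higher than in the DCs. The CX3CR1- cells were 1.98-fold above the CD11b+ cells for Serpinb2, which sets no order there, and 2.10-fold above them for Plat.

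Receptors for plasminogen and for spent protease complexes differed among themselves. Lrp1, which takes up urokinase bound to its inhibitor, gave 1604 in the CX3CR1high macrophages, 1802 in the CX3CR1- cells, 2500 in the CD11b+ cells and 137 in the DCs. As for Plaur, the DCs stood apart, with the CX3CR1high macrophages 11.7-fold above them. Anxa2, which binds plasminogen together with S100a10, was lowest in the CX3CR1high macrophages, with 6933 against 16744 in the CX3CR1- cells, 13886 in the CD11b+ cells and 16012 in the DCs. S100a10 lay within 2-fold in all 6 pairs. Of the integrin partners of Plaur, Itgam, a gate gene, was at 691 in the CX3CR1high macrophages, 408 in the CX3CR1- cells, 514 in the CD11b+ cells and 45.9 in the DCs, and Itgb2 was within 2-fold in every pair.

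**Figure D4:**
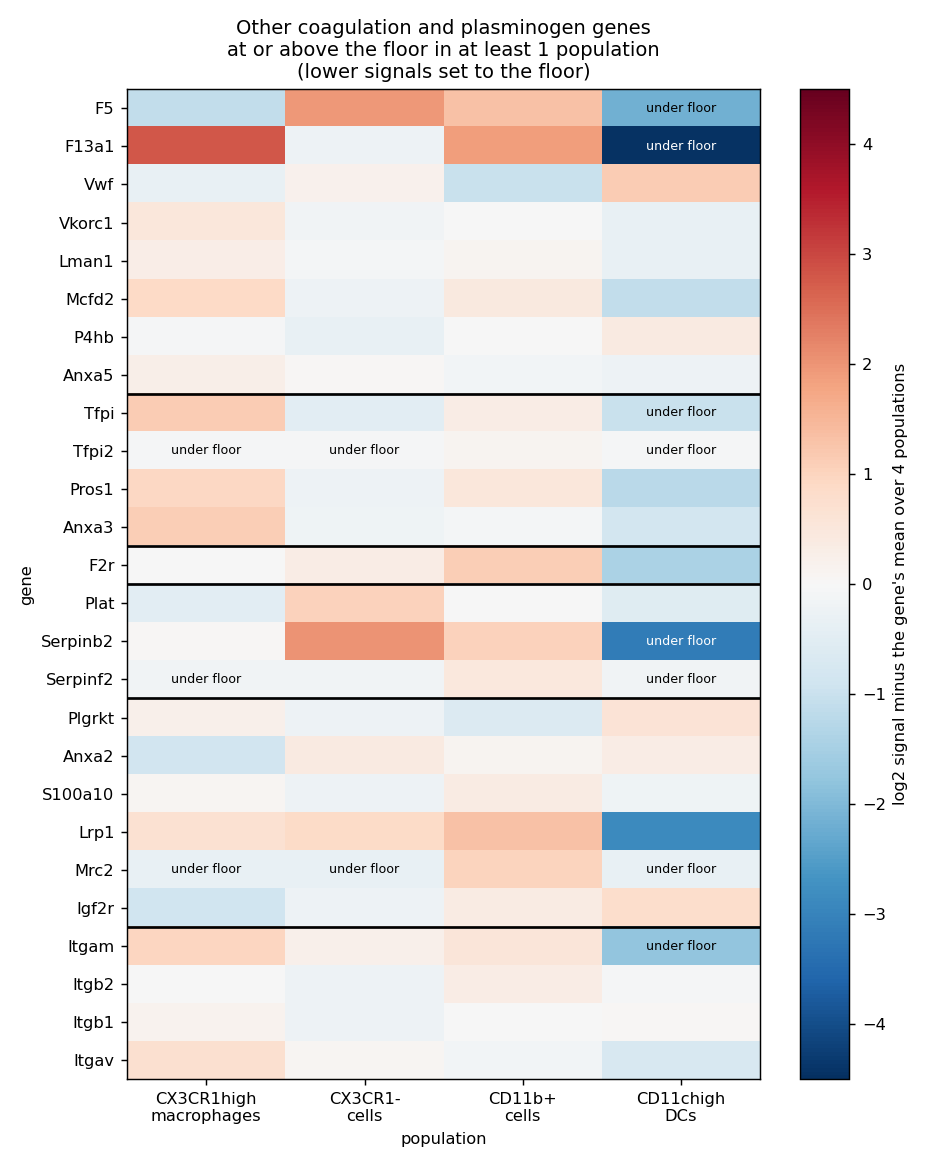
Log2 signal of the other pathway genes at or above the floor in at least 1 population, each gene centred on its mean over the 4 populations, with red above and blue below that mean and signals under the floor set to it. F13a1 and Serpinb2 are under the floor in the DCs, and F5 is higher in the CX3CR1- cells (1787) than in the CX3CR1high macrophages (212).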

How the data were processed

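The authors deposited 1 intensity per probe set on a linear scale, which per the submitters' processing notes came from MAS5 (version not given in the sources used here), from RNA labelled with biotin per the labels' protocols. In the values, each array had the same mean after 2% was trimmed at each end (500), and nothing was normalized further. Of 22690 probe sets, 20380 named 1 gene in the platform's annotation, and each gene took its brightest set, not of type _x_at where another existed. All 7 symbols matched RefSeq by Entrez number. No test was possible with 1 array per population. Ratios, floor and bounds were computed with Python 3.11.15, numpy 2.4.6 and pandas 2.3.3. The code for the calls was checked on simulated data without noise, which does not show how reliable calls from single arrays are. The members and lists were chosen with earlier results of these data known. Named genes are the members, genes of the fixed pathway and marker lists, and the 2 nearest genes of each member spanning 4-fold. The alternatives were floors at the 25th and 75th percentile, no floor, a pseudocount, 2 scalings, 2 choices of probe sets and a 4-fold limit.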

Additional observations from a re-analysis of the deposited data

How the results depend on the processing

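No paired analysis was possible because each population has 1 array. Of the 41 member ratios, 19 were past 2-fold, and none of these 19 changed direction under the alternatives that gave them a value. With the floor at the 25th percentile, with none, and with a pseudocount, 7 further ratios of F7, F10 and Plau passed 2-fold in each case, and the members past 2-fold in CX3CR1- cells against DCs numbered 5 rather than 3. With the floor at the 75th percentile that count was 1, the count in CX3CR1high macrophages against CD11b+ cells was 1 rather than 2, and 4 calls of Plau and Thbd were lost. Without probe sets of shared types, Procr and Plaur had no value, so 2 members rather than 4 were past 2-fold against the DCs, both in CX3CR1high macrophages and in CD11b+ cells. With a limit of 4-fold the counts were 0 in CX3CR1high macrophages against CX3CR1- cells, 0 in CX3CR1- cells against DCs and 1 in CX3CR1- cells against CD11b+ cells. In CX3CR1- cells against DCs, Thbd fell under 2-fold with equal medians and with quantile normalization, and F10 with the mean over its probe sets (log2 ratio 0.89). Equal medians moved the median log2 ratio of all genes against the DCs to -0.27 in CX3CR1high macrophages, -0.16 in CX3CR1- cells and -0.22 in CD11b+ cells.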
